A study of Homo sapiens with 15 samples.

Results

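The tight junction genes considered here are 9 genes whose symbols were looked up in the deposited count files: the claudins CLDN1, CLDN2, CLDN4, CLDN7 and CLDN12, occludin (OCLN), junctional adhesion molecule A (F11R), and the plaque proteins ZO-1 (TJP1) and cingulin (CGN). They are 9 of the 43388 genes counted. RNA was sequenced from A549, an established human lung adenocarcinoma line with epithelial morphology, in 15 libraries. Cells had been kept for 72 h in 95% oxygen (hyperoxia) or 21% oxygen (normoxia). At each oxygen exposure, 3 libraries came from cells that had first received all-trans-retinoic acid (ATRA, 1e-05 mM) for 24 h, 2 from cells that had received its solvent ethanol (vehicle), and 2 from cells whose labels name neither. All groups share the cell line, the culture medium with serum and the 72 h time point. One further library, whose title and treatment label name different conditions, was assigned to no group and entered no comparison. The labels do not say whether libraries of a group came from separate cultures, so p-values measure only the spread between these libraries, which may be technical.

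Tight junctions seal the space between neighbouring epithelial cells near their apical side. Claudins form the strands of the junction, and their mixture sets which ions and how much water pass between cells. Occludin and the junctional adhesion molecules are further membrane proteins of the junction, and ZO-1 and cingulin sit on its inner face, linking it to the actin cytoskeleton. In the alveolus this seal keeps fluid out of the airspace.

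In the 14 libraries used, each held 2642377 to 5605072 counts on genes (median 4038111.5), and between 12657 and 20108 genes had a count. A count of 3, taken as the floor of detection, corresponded to 0.535 to 1.14 CPM (counts divided by library size, on a common scale) before TMM factors, and covers counting error only. All CPM of the 14 libraries below include TMM factors. There were 2 libraries that stood apart from the others by few rare transcripts for their depth. Replicate 1 of hyperoxia with neither agent had 4910396 counts but 12657 genes with a count, of which 440 had 1 or 2 counts. Replicate 1 of hyperoxia with ATRA had 5605072 counts and 16466 genes with a count, of which 646 had 1 or 2 counts. Among the other 12 libraries, between 1119 and 2958 genes had 1 or 2 counts. The lowest of these were replicate 2 of hyperoxia with ATRA (1119, of 16465 genes with a count) and replicate 2 of normoxia with ATRA (1258, of 16865). The rest had 1928 to 2958. Only the 2 replicates 1 named above are called libraries with few rare transcripts below. Both of those are hyperoxic, and where a call of a named gene was lost without them, this is stated.

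Markers of the labelled cell type were examined first. Of 5 epithelial markers, the keratins KRT8 (median 3150 CPM over 14 libraries) and KRT18 (median 1680 CPM) were abundant, KRT19 and CDH1 were present in all 14 libraries, and EPCAM had 122 counts over all of them. The defining surfactant genes of alveolar type II cells were near or at 0, with 3 counts for SFTPC, 12 for SFTPB and 0 for SFTPA1. The type II markers LAMP3 and NAPSA had 65 counts each, and the 5 type II markers summed to 0 to 7.39 CPM in hyperoxia (median 3.31) and 0.348 to 2.87 CPM in normoxia (median 1.82). Of the type I markers, PDPN was at 0 and CAV1 was abundant (median 299 CPM). Summed over the 5 epithelial markers, of which KRT8 was the most abundant, the level was 1690 to 4200 CPM in the 7 hyperoxic libraries (median 2090) and 5740 to 9560 CPM in the 7 normoxic ones (median 6840). The 4 leukocyte markers summed to 60.4 to 103 CPM in hyperoxia (median 83.3) and 18.3 to 33.4 CPM in normoxia (median 25.7). Nearly all of this was CD68, a lysosomal protein gene, while CD3E was at 0 and PTPRC had 1 count in all. The 3 type I markers, led by CAV1, summed to 288 to 464 CPM in hyperoxia (median 406) and 235 to 312 CPM in normoxia (median 276). AGER went the other way, with medians of 0.541 and 2.09 CPM. The 5 fibroblast markers, led by COL1A1 and with DCN at 0, summed to 0 to 4.97 CPM in hyperoxia (median 1.42) and 1.56 to 13.2 CPM in normoxia (median 6). The 4 endothelial markers, led by CDH5 and with VWF at 0, summed to 0 to 0.353 CPM in hyperoxia and 0 to 6.26 CPM in normoxia. All libraries came from the A549 line, not from a mixture of cell types. A change in every cell and a change in a part of the cells cannot be told apart in these libraries. The part of these shifts in the results below was not tested.

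**Figure D1:**
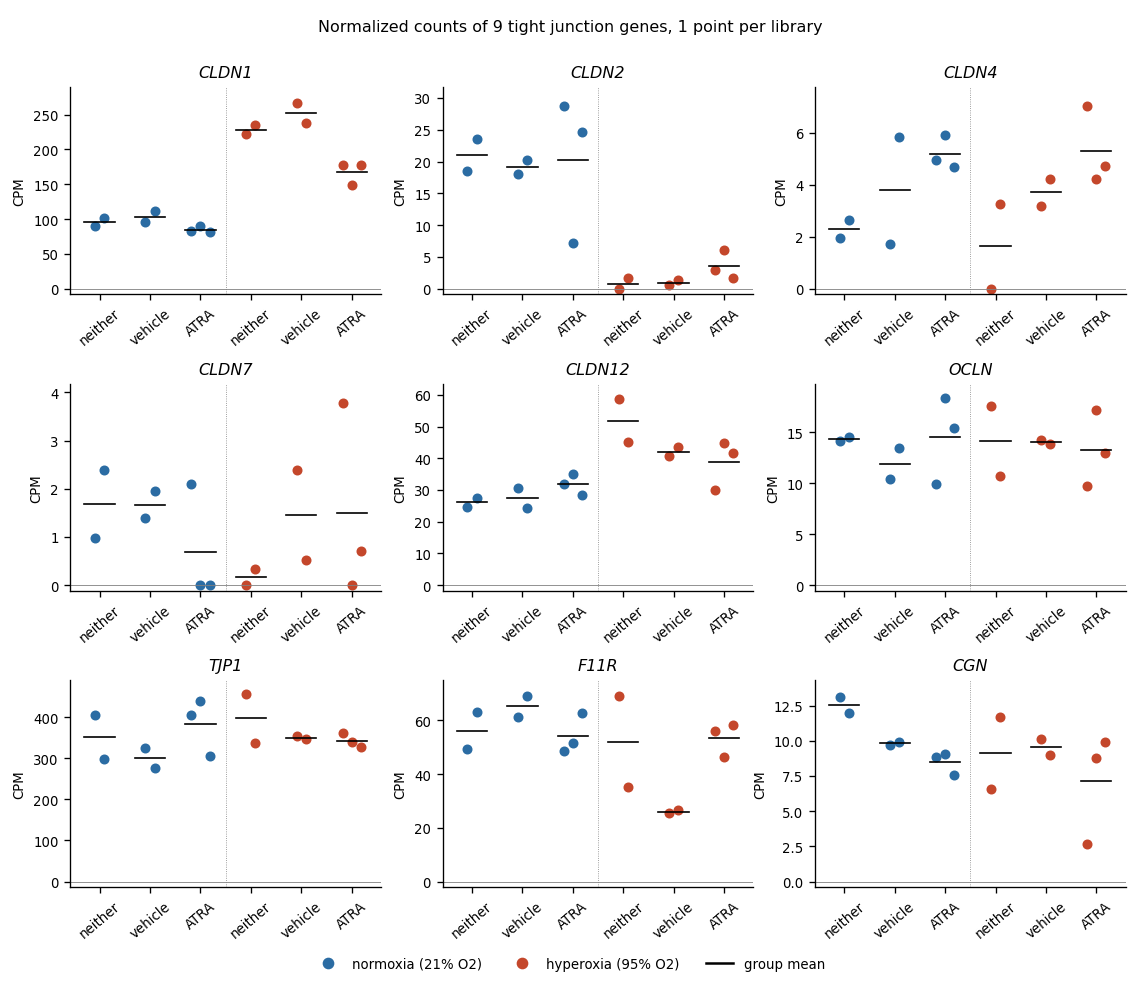
Normalized counts (CPM, vertical axes from 0) of the 9 tight junction genes in each library, by pretreatment (horizontal axis) and oxygen exposure (colour), with the mean of each group as a black line. CLDN1 lay at 149 to 266 CPM in hyperoxia and 82 to 111 CPM in normoxia, CLDN2 the other way round at 0 to 6.12 and 7.18 to 28.7 CPM, and F11R was at 25.4 and 26.7 CPM in hyperoxia with vehicle.

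Levels of different genes were compared per kb of the canonical GENCODE transcript. Averaged over the 14 libraries, TJP1 (49.4 CPM per kb) and CLDN1 (43.9 CPM per kb) had the highest means of the 9, followed by F11R (11.1) and CLDN12 (10.2 CPM per kb). CLDN2 averaged 3.74, CLDN4 2.29, OCLN 2.23, CGN 1.81 and CLDN7 0.766 CPM per kb. These means pool exposures that differ, and per kb CLDN1 was above TJP1 in 6 of 7 hyperoxic libraries and below it in all 7 normoxic ones. Enough reads for testing were found for 8 of the 9, and CLDN7 was left out by the filter, with 0 to 21 counts per library.

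The first question was which members differed between hyperoxia and normoxia at each pretreatment. With vehicle, 3 of the 8 members tested were DE genes (adjusted p-value under 0.05), CLDN1 rising and CLDN2 and F11R falling, against 17.5% of all 14957 genes tested. With ATRA, 2 of 8 were DE genes, CLDN1 rising and CLDN2 falling, against 22.7% of genes. With neither agent, CLDN1 and CLDN12 rose and CLDN2 fell, 3 of 8 against 15.2% of the 15339 genes tested in a fit of 14 libraries. The median log2 fold change of the 8 members was 0.09 with vehicle, -0.08 with ATRA and -0.06 with neither agent, beside 0.01, 0.01 and -0.10 for all genes tested.

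CLDN1 encodes a claudin that tightens the paracellular barrier (chr3:190305707-190322446, minus strand, GRCh38.p14). In hyperoxia it measured 222 and 235 CPM with neither agent, 266 and 238 CPM with vehicle, and 178, 149 and 177 CPM with ATRA. In normoxia it measured 89.7 and 102 CPM with neither agent, 95.9 and 111 CPM with vehicle, and 83.2, 89.9 and 82 CPM with ATRA. Every hyperoxic library was above every normoxic one, and within hyperoxia the ATRA libraries were the lowest. How many of all genes separated the exposures in this way was not counted. An additional oxygen fit over all 14 libraries, given below, called 30.2% of genes. The log2 fold change of hyperoxia against normoxia was 1.28 with vehicle (standard error 0.15, adjusted p = 2.04e-06, Benjamini-Hochberg, by the quasi-likelihood test of edgeR). It was 0.98 with ATRA (standard error 0.12, adjusted p = 4.8e-06) and 1.25 with neither agent (standard error 0.15, adjusted p = 3.62e-05, edgeR). Fitted on the 4 libraries with neither agent alone, the value was also 1.25 but the adjusted p was 0.0695. The group means ran from hyperoxia with vehicle (252 ± 20.1 CPM, SD, n = 2) through hyperoxia with neither agent (228 ± 9.53, n = 2) and with ATRA (168 ± 16.3, n = 3) to normoxia with vehicle (103 ± 10.4, n = 2), neither agent (96.1 ± 9, n = 2) and ATRA (85 ± 4.26, n = 3). Neighbouring normoxic groups overlapped, while the 3 hyperoxic groups did not.

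CLDN2 encodes a claudin that forms a paracellular channel for small cations and water (chrX:106900164-106930861, plus strand, GRCh38.p14). In hyperoxia it had 0 and 5 counts with neither agent, 2 and 8 counts with vehicle, and 16, 16 and 7 counts with ATRA. These correspond to 0 and 1.63, 0.53 and 1.41, and 2.88, 6.12 and 1.65 CPM. In normoxia it measured 18.5 and 23.5 CPM with neither agent, 18.1 and 20.2 CPM with vehicle, and 28.7, 7.18 and 24.7 CPM with ATRA. Every hyperoxic library was below every normoxic one, a separation whose share over all genes was not counted. The highest hyperoxic value (6.12 CPM) and the lowest normoxic one (7.18 CPM) were close. Both came from replicate 2 of the ATRA groups, the libraries with the next lowest numbers of genes with 1 or 2 counts. The log2 fold change of hyperoxia against normoxia was -4.17 with vehicle (standard error 0.69, adjusted p = 0.000168, edgeR). With ATRA it was -2.60 (standard error 0.50, adjusted p = 0.000615, edgeR). With neither agent it was -4.89 (standard error 1.02, adjusted p = 0.00422, edgeR), and -4.77 with an adjusted p of 0.25 when only those 4 libraries were fitted. Replicate 1 of hyperoxia with neither agent held the count of 0. Without that library and replicate 1 of hyperoxia with ATRA, the values were -3.66 with neither agent and -2.50 with ATRA (adjusted p = 0.00368 and 0.00186, edgeR). Without replicate 2 of hyperoxia with neither agent the fitted value was -9.51 (adjusted p = 2.16e-05, edgeR), but that group then holds only the count of 0 and the value is no bound. With only 2 to 16 counts in the other hyperoxic libraries, the sizes of these changes are known less well than their direction. Normoxia with neither agent (21 ± 3.52 CPM, SD, n = 2), ATRA (20.2 ± 11.4, n = 3) and vehicle (19.1 ± 1.52, n = 2) overlapped, and so did hyperoxia with vehicle (0.971 ± 0.624, n = 2) and with neither agent (0.814 ± 1.15, n = 2), with hyperoxia with ATRA (3.55 ± 2.31, n = 3) in between.

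CLDN12 encodes a claudin that lacks the PDZ-binding tail by which most claudins bind ZO-1 (chr7:90403461-90415954, plus strand, GRCh38.p14). In hyperoxia it measured 58.7 and 45 CPM with neither agent, 40.6 and 43.6 CPM with vehicle, and 30.1, 44.8 and 41.8 CPM with ATRA. In normoxia it measured 24.6 and 27.6 CPM with neither agent, 30.6 and 24.3 CPM with vehicle, and 31.8, 35 and 28.4 CPM with ATRA. The ranges of the oxygen exposures overlapped through a single hyperoxic library, replicate 1 of the ATRA group (30.1 CPM), and without it the hyperoxic libraries lay at 40.6 CPM or above and the normoxic ones at 35 CPM or below. The log2 fold change was 1.00 with neither agent (standard error 0.26, adjusted p = 0.0189, edgeR), 0.63 with vehicle (standard error 0.24, adjusted p = 0.0837) and 0.28 with ATRA (standard error 0.20, adjusted p = 0.341). The call with neither agent was lost without replicate 1 of the hyperoxic group (0.78, adjusted p = 0.0966), without replicate 1 of the normoxic group (0.87, adjusted p = 0.182) and without its replicate 2 (1.04, adjusted p = 0.0842). It was also lost when only the 4 libraries with neither agent were fitted (0.99, adjusted p = 0.25). With vehicle the gene passed the threshold without replicate 1 of hyperoxia with ATRA (0.63, adjusted p = 0.0407), with only the groups compared (0.63, adjusted p = 0.0121) and with pooled controls (0.81, adjusted p = 0.00322). In other alternatives the gene stayed uncalled, with an adjusted p of up to 0.182 (edgeR). Leaving out each library in turn gave values from 0.44 to 0.76. The group means fell from hyperoxia with neither agent (51.8 ± 9.74 CPM, SD, n = 2), vehicle (42.1 ± 2.16, n = 2) and ATRA (38.9 ± 7.75, n = 3) to normoxia with ATRA (31.7 ± 3.3, n = 3), vehicle (27.4 ± 4.45, n = 2) and neither agent (26.1 ± 2.13, n = 2). Among neighbours in this order, only the first and second did not overlap.

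An additional fit of hyperoxia against normoxia over all 14 libraries, with the pretreatment as a covariate, was chosen after seeing the data. It called 3 of 8 members against 30.2% of genes, CLDN1 (1.15, standard error 0.08, adjusted p = 1.15e-08), CLDN2 (-3.53, standard error 0.52, adjusted p = 4.08e-05) and CLDN12 (0.59, standard error 0.15, adjusted p = 0.00639), all by edgeR. The same fit without the 2 libraries with few rare transcripts called these 3 members and F11R (-0.63, standard error 0.16, adjusted p = 0.00334, edgeR), against 38.1% of genes. With all 14 libraries F11R had a log2 fold change of -0.40 (adjusted p = 0.139, edgeR).

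CLDN4, a claudin that restricts sodium passage (chr7:73830996-73832690, plus strand, GRCh38.p14), measured 0 to 7.03 CPM in hyperoxia (median 4.21) and 1.74 to 5.93 CPM in normoxia (median 4.68). The exposures overlapped, and its log2 fold changes of -0.09 with vehicle, 0.06 with ATRA and -0.58 with neither agent had standard errors of 0.71, 0.57 and 1.17. Its only count of 0 was in replicate 1 of hyperoxia with neither agent. With that library alone standing for its group, the fitted value was -6.32 and passed the threshold (adjusted p = 0.00878, edgeR), and with only the other replicate it was 0.50. A fold against a group at 0 counts is no bound on its size. CLDN7 (chr17:7259903-7263213, minus strand, GRCh38.p14), a claudin of the lateral membrane, had 75 counts over the 14 libraries and was at 0 in 4 of them. ELP5 overlaps it on the opposite strand and had 4561 counts, 60.8 times as many. The library kit keeps strand, but whether the counting used it is not given in the sources used here, so the CLDN7 counts are uncertain.

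**Figure D2:**
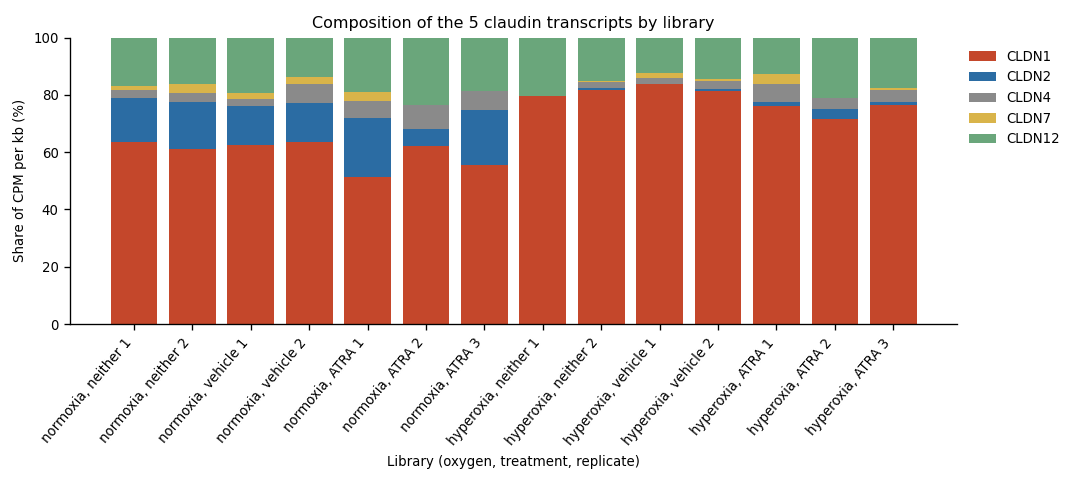
Share of each of the 5 claudin transcripts (percent of their summed CPM per kb, vertical axis) in each library (horizontal axis, by oxygen, pretreatment and replicate), as stacked bars from 0 to 100. CLDN1 made up 71.5 to 83.7% in the hyperoxic and 51.2 to 63.5% in the normoxic libraries, and CLDN2 0 to 3.42% and 5.79 to 20.6%.

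Among these 5 claudins, the shares of CLDN1 and CLDN2 in the plot of claudin shares did not overlap between the oxygen exposures, while those of CLDN4, CLDN7 and CLDN12 did. How many of all genes separate the exposures was not counted, and the oxygen fit over all 14 libraries called 30.2% of genes. CLDN15, which is not a member, had group means of 7.3 to 14.5 CPM per kb and is not part of these shares. Per kb, CLDN1 exceeded CLDN2 in all 14 libraries. The ratio of CLDN1 to CLDN2 per kb was 2.49 to 10.8 in the 7 normoxic libraries and 20.9 to 145 in the 5 hyperoxic libraries with at least 3 CLDN2 counts, so the exposures did not overlap. In the other 2 hyperoxic libraries CLDN2 had 0 and 2 counts, below the floor, and no ratio is given. These ratios are descriptions and were not tested.

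Because CLDN1 and CLDN2 moved in opposite directions, the sequences at their annotated start sites are shown here, 250 bases before to 50 bases after each start (RefSeq, GRCh38.p14). Windows were found for 8 of the 9 members, all except F11R. Capitals mark matches to 4 motifs searched on both strands: the E2-box (CAGGTG or CACCTG), bound by repressors such as SNAI1 and ZEB1; the nuclear receptor half-site (AGGTCA or TGACCT), the unit of which retinoic acid response elements are built; the GC box (GGGCGG or CCGCCC); and the TATA box (TATAAA or TTTATA). CLDN1 has 1 window, chr3:190322397-190322696 on the minus strand, and CLDN2 has 2, chrX:106899914-106900213 and chrX:106918110-106918409, both on the plus strand.
CLDN1: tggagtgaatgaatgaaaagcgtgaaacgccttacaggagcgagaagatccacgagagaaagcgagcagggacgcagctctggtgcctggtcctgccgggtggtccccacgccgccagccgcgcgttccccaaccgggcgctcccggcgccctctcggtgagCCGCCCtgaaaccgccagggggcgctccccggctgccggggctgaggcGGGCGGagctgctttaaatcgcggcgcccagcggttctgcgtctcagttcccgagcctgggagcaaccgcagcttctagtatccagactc
CLDN2 first start: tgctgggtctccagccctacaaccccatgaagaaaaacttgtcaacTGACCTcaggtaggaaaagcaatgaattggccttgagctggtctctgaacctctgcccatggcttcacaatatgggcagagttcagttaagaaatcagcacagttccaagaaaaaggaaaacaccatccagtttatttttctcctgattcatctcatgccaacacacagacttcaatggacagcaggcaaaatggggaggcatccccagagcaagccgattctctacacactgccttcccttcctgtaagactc
CLDN2 second start: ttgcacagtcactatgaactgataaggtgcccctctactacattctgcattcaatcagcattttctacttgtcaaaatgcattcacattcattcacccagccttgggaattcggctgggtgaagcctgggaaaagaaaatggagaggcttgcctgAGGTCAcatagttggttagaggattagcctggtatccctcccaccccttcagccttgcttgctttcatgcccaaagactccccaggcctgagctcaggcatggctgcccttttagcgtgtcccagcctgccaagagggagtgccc
The CLDN1 window was 67% G or C with 31 CpG dinucleotides and held 2 GC boxes and no other match. The CLDN2 windows were 47.3% and 51.3% G or C with 1 and 2 CpG dinucleotides, and each held a single half-site, at -204 and -95 from its start. Over all 35114 windows of the reference, the median was 58.7% G or C and 14 CpG, and 20.6% held an E2-box, 13.8% a half-site, 45% a GC box and 11.5% a TATA box. Among the other members, half-sites were also found in windows of CLDN4, CLDN7, TJP1 and CGN, and the second CLDN7 window held 5 E2-boxes. A match describes these letters only.

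OCLN encodes occludin, a membrane protein of the junction strands (chr5:69492547-69558104, plus strand, GRCh38.p14). It measured 9.74 to 17.6 CPM in hyperoxia (median 13.9) and 9.91 to 18.4 CPM in normoxia (median 14.2), and the exposures overlapped. Its log2 fold change was 0.23 with vehicle, -0.15 with ATRA and -0.02 with neither agent (standard errors 0.39, 0.32 and 0.44), none of them called. OCLN has a partly duplicated copy, the pseudogene OCLNP1, which had 4 counts beside 804 for OCLN over the 14 libraries. Reads that match both equally may have gone to neither.

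F11R encodes JAM-A, an immunoglobulin-like adhesion molecule that helps to position the junction (chr1:160995211-161021152, minus strand, GRCh38.p14). In hyperoxia it measured 69.1 and 35.2 CPM with neither agent, 25.4 and 26.7 CPM with vehicle, and 56.1, 46.3 and 58.3 CPM with ATRA. In normoxia it measured 49.3 and 63.1 CPM with neither agent, 61.2 and 69.2 CPM with vehicle, and 48.5, 51.5 and 62.7 CPM with ATRA. The 2 hyperoxic vehicle libraries were the lowest of the 14. Of the other 5 groups, normoxia with vehicle (61.2 and 69.2 CPM) was above hyperoxia with ATRA (46.3 to 58.3 CPM), and all other pairs overlapped. The log2 fold change of hyperoxia against normoxia was -1.32 with vehicle (standard error 0.21, adjusted p = 9.23e-05, edgeR). With ATRA it was -0.01 (standard error 0.17, adjusted p = 0.972, edgeR), with an interval of 2 standard errors from -0.34 to 0.32. With neither agent it was -0.09 (standard error 0.27, adjusted p = 0.843, edgeR). The replicates of hyperoxia with neither agent differed widely. Without replicate 1, the library with few rare transcripts, the value with neither agent was -0.68, and without replicate 2 it was 0.25. Without replicate 2 of normoxia with neither agent it was 0.05, so its direction depended on single libraries. With the libraries of vehicle and of neither agent pooled as controls, the value was -0.64 (adjusted p = 0.0752). The group means were 65.2 ± 5.66 CPM (SD, n = 2) in normoxia with vehicle, 56.2 ± 9.72 (n = 2) with neither agent and 54.2 ± 7.49 (n = 3) with ATRA, then 53.6 ± 6.39 (n = 3), 52.1 ± 24 (n = 2) and 26.1 ± 0.857 CPM (n = 2) in hyperoxia with ATRA, neither agent and vehicle.

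TJP1 encodes ZO-1, the scaffold that binds claudins and occludin to actin (chr15:29699367-29969049, minus strand, GRCh38.p14). It measured 327 to 457 CPM in hyperoxia (median 346) and 277 to 439 CPM in normoxia (median 324), and the exposures overlapped. Its log2 fold change was 0.22 with vehicle, -0.16 with ATRA and 0.17 with neither agent (standard errors 0.15, 0.12 and 0.19), none called. CGN encodes cingulin, which binds ZO-1 and RhoA regulators (chr1:151510170-151538692, plus strand, GRCh38.p14). It measured 2.7 to 11.7 CPM in hyperoxia (median 9) and 7.55 to 13.1 CPM in normoxia (median 9.73), with overlap, and log2 fold changes of -0.05, -0.28 and -0.46 in the same order (standard errors 0.52, 0.44 and 0.59), none called. Its lowest value, 2.7 CPM, was in replicate 1 of hyperoxia with ATRA.

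**Figure D3:**
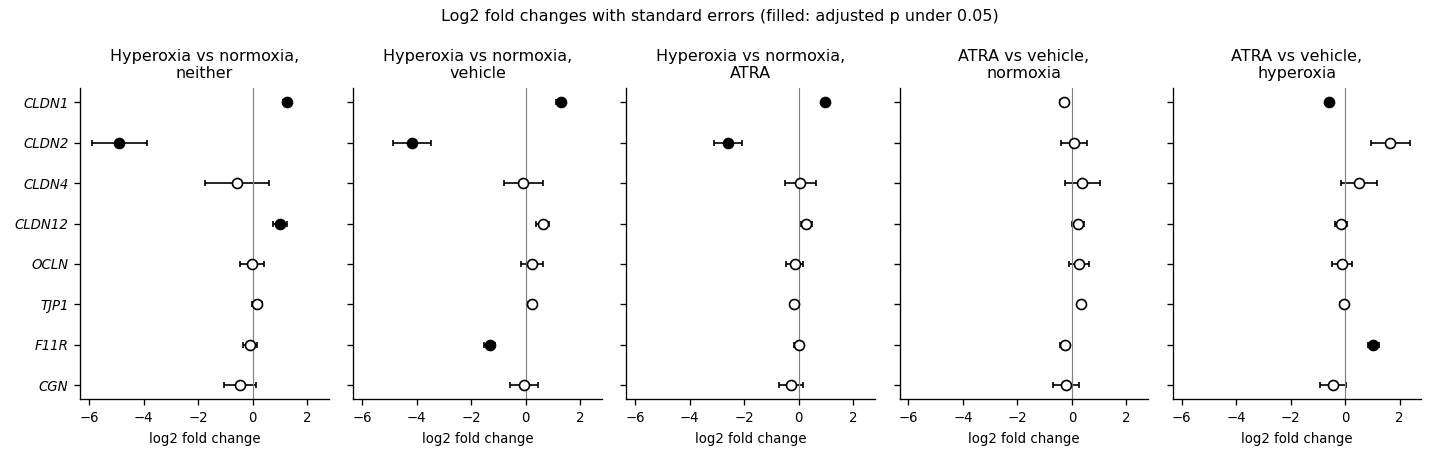
Log2 fold changes (horizontal axes) of the 8 members tested in 5 comparisons (panels), with standard errors as bars and filled points where the adjusted p-value was under 0.05. CLDN1 and CLDN2 were called in opposite directions in all 3 oxygen comparisons, and F11R was -1.32 in hyperoxia with vehicle and 1.04 for ATRA against vehicle in hyperoxia.

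The second question was whether ATRA changed the members at either oxygen exposure. In hyperoxia, ATRA raised F11R and lowered CLDN1 relative to vehicle, 2 of 8 members against 2.21% of genes called. F11R differed by 1.04 log2 units (standard error 0.19, adjusted p = 0.00354, edgeR), with all 3 ATRA libraries above both vehicle libraries. CLDN1 had -0.58 (standard error 0.13, adjusted p = 0.0159, edgeR), with all 3 ATRA libraries below both vehicle libraries. In the same libraries the epithelial markers summed to 4200, 3390 and 2800 CPM with ATRA and 1690 and 1780 CPM with vehicle. CLDN2 was not called, at 1.66 (standard error 0.72, adjusted p = 0.305, edgeR). Both oxygen and ATRA comparisons with vehicle use the same 2 hyperoxic vehicle libraries. The F11R call was lost without replicate 1 (1.00, adjusted p = 0.114) or replicate 2 (1.07, adjusted p = 0.0904) of those libraries, in a fit of all 14 libraries (1.04, adjusted p = 0.0923), and against controls with and without vehicle together (0.44, adjusted p = 0.508). The CLDN1 call was lost without replicate 1 (-0.51, adjusted p = 0.381) or 2 (-0.67, adjusted p = 0.0949) of hyperoxia with vehicle, or replicate 2 of hyperoxia with ATRA (-0.53, adjusted p = 0.0586).

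In normoxia, 0 of 8 members were called for ATRA against vehicle by edgeR, against 1.25% of genes, and 0 by DESeq2, which gave 2 of the 9 no adjusted p. At an unadjusted p-value under 0.05 there were 2, TJP1 (log2 fold change 0.35, standard error 0.14, adjusted p = 0.40) and CLDN1 (-0.29, standard error 0.14, adjusted p = 0.566). F11R was -0.27 (standard error 0.18) and CLDN2 0.08 (standard error 0.48). The remaining members, CLDN4, CLDN12, OCLN and CGN, had values between -0.21 and 0.38 in normoxia and between -0.45 and 0.52 in hyperoxia, none called.

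The interaction term asked whether the ATRA effect differed between the oxygen exposures. It was called for 1 of 8 members, F11R, against 0.14% of genes, with a log2 value of 1.31 (standard error 0.27, adjusted p = 0.0497, edgeR). The adjusted p was close to the threshold and rose above it without any of 8 of the 10 libraries, with values from 1.21 to 1.41 in the 10 fits that each left out a library. With pooled controls it was 0.60 (standard error 0.38, adjusted p = 0.937, edgeR). Without replicate 1 of hyperoxia with ATRA it was 1.28 (adjusted p = 0.0578, edgeR). DESeq2 gave 1.32 with an unadjusted p of 1.57e-05 and, by its own filter, no adjusted p. For CLDN1 the interaction was -0.30 (standard error 0.19, adjusted p = 0.82, edgeR) and for CLDN2 1.57 (standard error 0.87, adjusted p = 0.771, edgeR), so a difference in their ATRA effect between the exposures was not shown. The other 5 members had values from -0.38 to 0.14.

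Vehicle was set against neither agent in a comparison added after seeing the data. In hyperoxia, edgeR called a single gene of 15339 (0.00652%), RPS29, chosen for mention after its value was seen, and no member. DESeq2 called 4 genes there, and 1366 had an unadjusted p under 0.05 by edgeR. In normoxia, 0 genes were called by edgeR and by DESeq2 (0%), with 133 at an unadjusted p under 0.05. F11R had -1.01 in hyperoxia (standard error 0.28, unadjusted p = 0.00229, adjusted p = 0.554, edgeR), so it was among the genes with an unadjusted p under 0.05. Its value was -0.43 without the 2 libraries with few rare transcripts. In normoxia it had 0.22 (standard error 0.27).

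The genes whose mean log2 CPM over the 6 groups ran nearest to each called member were named by root mean square difference, as a description. For CLDN1 they were MAP7D1 (0.05), TNPO1 (0.05) and EHD1 (0.077), and for CLDN2 GALNT6 (0.25), TM4SF4 (0.296) and BCAS1 (0.325). For CLDN12 they were RNF41 (0.054), RAD51L3-RFFL (0.055) and MIDN (0.056), and for F11R VWA7 (0.075), MYH14 (0.1) and ZNF467 (0.123).

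The rest of the junction was described with lists of related genes. Of 18 other claudins, 6 were tested in the 10-library fit and 0 were called in any of its 5 comparisons by edgeR, with 0 at an unadjusted p under 0.05. The shares of all genes called there were 17.5% and 22.7% for oxygen with vehicle and with ATRA, 2.21% and 1.25% for ATRA in hyperoxia and normoxia, and 0.14% for the interaction. DESeq2 also called 0, but by its own filter gave no adjusted p to 14 of the 18 with vehicle, 11 with ATRA, 16 and 17 for ATRA in hyperoxia and normoxia, and 18 for the interaction. Of 7 tested with neither agent, 0 were called by edgeR, 2 had an unadjusted p under 0.05 (CLDN10 and CLDN20), and DESeq2 called 1, CLDN20, a call that was lost without the libraries with few rare transcripts. In the oxygen fit with pretreatment as a covariate, edgeR called 1 of 7, CLDN10 (-2.35, standard error 0.79, adjusted p = 0.0293), over 14 libraries and 1 of 8, again CLDN10 (-2.21, standard error 0.77), over 12, beside 30.2% and 38.1% of all genes. The median log2 fold change of the other claudins in hyperoxia was -0.76 with vehicle, -0.33 with ATRA and -0.70 with neither agent. For all genes tested it was 0.01, 0.01 and -0.10. The claudin medians rest on 6 or 7 genes, none of them called by edgeR in these 3 comparisons. Of 12 other membrane proteins of the tight junction, 6 were tested and 0 were called by edgeR in any of the 6 comparisons, beside the same shares and 15.2% with neither agent. At an unadjusted p under 0.05 these were 1 with vehicle, 2 with ATRA and 1 with neither agent in the oxygen comparisons, 1 for ATRA in hyperoxia and 0 in the others, and DESeq2, which gave 3 to 12 of the 12 no adjusted p in the other 5 comparisons, called 1, JAM3, with neither agent, which was lost without the libraries with few rare transcripts. Without these libraries edgeR called CLMP, an adhesion molecule, in hyperoxia with vehicle (0.90, standard error 0.28, adjusted p = 0.0208) and with ATRA (1.11, standard error 0.26, adjusted p = 0.00332), 1 of 6 each time beside 21.5% and 22.7% of all genes. The oxygen fit with pretreatment as a covariate called CLMP over 14 libraries (0.80, standard error 0.20, adjusted p = 0.0042, edgeR). Over 12 libraries it called CLMP (0.91), LSR (-0.63) and CRB3 (-2.59), 3 of 9 beside 38.1% of all genes. These list genes were chosen for mention after their values were seen.

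Of 26 plaque and polarity genes, 25 were tested, and 5 rose and 2 fell in hyperoxia with vehicle, and likewise with ATRA and with neither agent, beside 17.5%, 22.7% and 15.2% of all genes called. In the oxygen fit with pretreatment as a covariate, 6 rose and 5 fell over 14 libraries, beside 30.2% of all genes. Over 12 libraries, 6 rose and 7 fell, beside 38.1%. AMOTL2, an angiomotin-like regulator of YAP, rose by a log2 fold change of 1.03 with vehicle, 1.24 with ATRA and 1.10 with neither agent (standard errors 0.17, 0.14 and 0.19). YBX3, a Y-box protein that binds ZO-1, rose by 0.64, 0.86 and 0.73, and SYMPK, a polyadenylation factor also found at the junction, by 0.58, 0.53 and 0.54. PARD3, a core polarity scaffold, had -0.52, -0.73 and -0.93, called each time, the last -0.66 without the library with few rare transcripts. PATJ, a Crumbs complex scaffold, fell with vehicle (-1.02, standard error 0.23) and with neither agent (-0.90, standard error 0.24). TJAP1 rose in all 3 comparisons (0.90, 0.73 and 1.18), but DESeq2 did not call it with ATRA. PARD3B rose with vehicle (1.54, standard error 0.41), ARHGEF18 rose with ATRA (0.56) and with neither agent (0.79, but 0.54 with an adjusted p of 0.181 without the library with few rare transcripts), and ARHGAP17 fell with ATRA (-0.68). With ATRA against vehicle 0 of the 25 were called in hyperoxia or normoxia, beside 2.21% and 1.25% of all genes, by edgeR or DESeq2 (which gave 3 and 4 of the 26 no adjusted p), with 3 in hyperoxia and 1 in normoxia at an unadjusted p under 0.05 by edgeR.

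**Figure D4:**
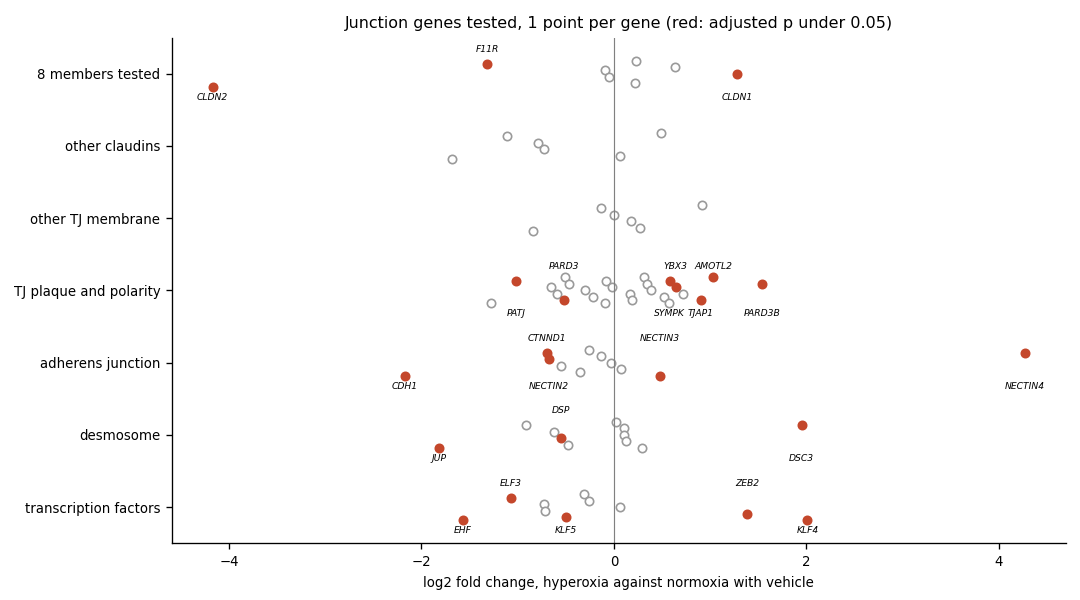
Log2 fold changes of hyperoxia against normoxia with vehicle (horizontal axis) for every junction gene tested, by list (vertical axis), 1 point per gene, with DE genes filled and named. The members spanned -4.17 (CLDN2) to 1.28 (CLDN1), and NECTIN4, far to the right, has at most 3 counts per normoxic vehicle library, so its position is uncertain.

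Of 12 adherens junction genes, 11 were tested. In hyperoxia, 2 rose and 3 fell with vehicle, 1 rose and 4 fell with ATRA, and 1 rose and 1 fell with neither agent, beside the same shares of all genes. CDH1, which encodes E-cadherin, fell with vehicle (-2.17, standard error 0.30) and with ATRA (-1.54, standard error 0.22), and was higher with ATRA than with vehicle in hyperoxia (1.28, standard error 0.28, adjusted p = 0.0153, edgeR). PLEKHA7 was also higher with ATRA there (0.96, standard error 0.24). Both calls were lost without replicate 1 of hyperoxia with ATRA (0.87, adjusted p = 0.0887 for CDH1 and 1.00, adjusted p = 0.0504 for PLEKHA7, edgeR), and the interactions of CDH1 (0.63, standard error 0.37) and PLEKHA7 (0.47, standard error 0.34) were not called. With neither agent CDH1 was at -1.02, not called by edgeR (adjusted p = 0.0556) but called by DESeq2. Without the library with few rare transcripts CDH1 was at -1.70. CTNND1, the p120 catenin, had -0.70, -0.70 and -0.69 with vehicle, ATRA and neither agent. With vehicle, the counts of NECTIN4 were 28 and 37 under hyperoxia against 0 and 3 under normoxia, and the gene was called in each oxygen comparison. NECTIN3 rose (0.48) and NECTIN2 fell (-0.68) with vehicle, and NECTIN1 (-0.85) and VCL (-0.44) fell with ATRA. The NECTIN1 call was lost without replicate 1 of hyperoxia with ATRA (-0.73, adjusted p = 0.0685, edgeR).

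Of 15 desmosome genes, 11 were tested, and in hyperoxia 1 rose and 2 fell with vehicle and with neither agent, and 2 rose and 2 fell with ATRA, beside 17.5% of all genes called with vehicle, 15.2% with neither agent and 22.7% with ATRA. JUP, which encodes plakoglobin, had -1.82 with vehicle, -1.03 with ATRA and -1.20 with neither agent, and was higher with ATRA than with vehicle in hyperoxia (0.73, standard error 0.17, adjusted p = 0.0188, edgeR), with an interaction of 0.79 (standard error 0.23, adjusted p = 0.327, edgeR) that DESeq2 called. Without replicate 1 of hyperoxia with ATRA the JUP difference between ATRA and vehicle was 0.56 and not called (adjusted p = 0.0838, edgeR). DSP fell (-0.55, -0.36 and -0.80) and the desmocollin gene DSC3 rose (1.95, 1.87 and 2.26) in the same 3 comparisons, and PERP rose in hyperoxia with ATRA (0.36), a call lost without that library (0.30, adjusted p = 0.0652, edgeR).

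Of 14 transcription factors of epithelial junction genes, 10 were tested, and in hyperoxia 2 rose and 3 fell with vehicle, 2 rose and 2 fell with ATRA, and 1 fell with neither agent, where 17.5%, 22.7% and 15.2% of all genes were called. ELF3, an epithelial ETS factor, fell in hyperoxia (-1.07 with vehicle, -0.40 with ATRA and -0.74 with neither agent) and was higher with ATRA than with vehicle in hyperoxia by 1.67 (standard error 0.17, adjusted p = 5.56e-06, edgeR). For normoxia the ATRA value of ELF3 was 1.00 (standard error 0.16, adjusted p = 0.00166, edgeR), and its interaction was 0.67 (standard error 0.23, adjusted p = 0.429, edgeR). Without the library with few rare transcripts its value with neither agent was -0.63 (adjusted p = 0.0574, edgeR). KLF4 rose with vehicle (2.01) and ATRA (2.34), as did ZEB2, a repressor of CDH1 (1.38 and 1.03). EHF fell with vehicle (-1.57) and ATRA (-0.95), and KLF5 with vehicle (-0.50). DESeq2 did not call EHF with ATRA.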

How the data were processed

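The authors deposited raw read counts per gene symbol, 1 file per library, without normalization. By the submitters' processing notes, reads were trimmed with Trimmomatic 0.38, aligned to hg38 with HISAT2 and counted with HTSeq. The annotation release and the strand and overlap settings are not given in the sources used here. Summary rows that name no gene held 75.2 to 78.4% of reads and were left out.

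The tests used edgeR 4.0.16 under R 4.3.3. Low counts were filtered out by filterByExpr, at a minimum count of 10 and a total of 15, and library sizes normalized by TMM. A quasi-likelihood model of 4 groups was fitted to the 10 vehicle and ATRA libraries, and one of 6 groups to 14 libraries for comparisons with neither agent. All adjusted p-values, unless DESeq2 is named, are edgeR's with Benjamini-Hochberg adjustment over all genes tested, and those under 0.05 were called. The test was tested on simulated data. Standard errors were not given by the fit. Each was the absolute log2 fold change divided by the square root of the F statistic of its test, and is approximate. Log2 CPM used a prior count of 2. DESeq2 1.42.0 was an alternative; the others were RLE size factors, no filter, only the groups compared, all 14 libraries, pooled controls, a block of library number runs, and leaving out each library. Fits without 2 libraries with few rare transcripts, oxygen fits over 14 and 12 libraries, the list genes in both, and vehicle against neither agent were added after seeing the data.

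Positions and promoters came from RefSeq (GRCh38.p14), transcript lengths from GENCODE 44. The genes named are mainly the 9 members, up to 6 called genes per list and comparison with the smallest p, the 3 nearest patterns of each called member, genes overlapping a member, and cell type markers. Others named outside this rule include RPS29, CLDN15 and OCLNP1. The members and lists were chosen with earlier results of these data known. Python 3.11.15 with matplotlib 3.10.9 made the plots.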

Additional observations from a re-analysis of the deposited data

Results flagged for a closer look

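F11R was flagged because its ATRA effect differed between the oxygen exposures by a test of the difference itself, with a log2 interaction of 1.31 (standard error 0.27, adjusted p = 0.0497, edgeR). The values behind it were 25.4 and 26.7 CPM in hyperoxia with vehicle, 46.3 to 58.3 CPM in hyperoxia with ATRA, and 48.5 to 69.2 CPM in normoxia over the vehicle and ATRA libraries. The interaction was 0.60 (adjusted p = 0.937, edgeR) with pooled controls, and the next part says in which fits it did not pass the threshold.

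In the library that was assigned to no group, because its title names hyperoxia and its treatment label another treatment, 3 members had a higher CPM (without TMM factors) than any of the 4 normoxic control libraries without ATRA. CLDN1 was at 235, where those controls were at 86.9 to 114. CLDN12 was at 47.1, where the controls were at 23.8 to 31, and OCLN was at 17.7, where they were at 10.6 to 14.6. Over the 14 grouped libraries the ranges were 80.5 to 263 for CLDN1, 23.8 to 59.9 for CLDN12 and 9.63 to 18.7 for OCLN. All 3 values lay within them. The comparison rests on 1 library, and no test was made.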

How the results depend on the processing

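The number of members called was within 1.5 times its main value under every alternative for hyperoxia against normoxia with vehicle and with ATRA and for ATRA in normoxia, and no called member changed direction. For ATRA in hyperoxia, 1 member in place of 2 was called with all 14 libraries in 6 groups, and 1 with controls with and without vehicle together. Leaving out each library gave 0 to 2, with 0 without either replicate of hyperoxia with vehicle and 1 without replicate 2 of hyperoxia with ATRA. With neither agent, 0 members in place of 3 were called when only the 4 libraries of the groups compared were fitted, where 58 genes of 13833 were called in place of 2324. For the interaction, 0 members in place of 1 were called with all 14 libraries, with pooled controls, without both libraries with few rare transcripts, and with DESeq2, which gave F11R no adjusted p. With pooled controls the F11R interaction was 0.60 in place of 1.31, and its adjusted p ranged from 0.00518 to 0.937 over the alternatives. Leaving out each library gave 0 to 1, with 1 only without replicate 2 of hyperoxia with ATRA or replicate 3 of normoxia with ATRA. The causes were not tested.

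Among the log2 fold changes of single members, 802 alternative values kept their direction and side of the threshold, 27 lost a call, 7 gained one, and 44 changed sign without a call on either side.

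Counts of all genes called moved by over 1.5 times for vehicle (2616; 1386 to 4665), ATRA-treated cells (3391; 1975 and 2073), ATRA in hyperoxia (331; 83 to 522), ATRA in normoxia (187; 56 to 300), neither agent (2324; 58 to 7364) and the interaction (21; 4 to 94). The 7364 came without replicate 2 of hyperoxia with neither agent, which leaves replicate 1, the library with 12657 genes, and shifted the median of all genes from -0.10 to -0.46. The oxygen fits with pretreatment as a covariate, which are of another form, called 4635 genes over 14 libraries and 6147 over 12. Where a group is left with 1 library, it is assumed to vary like the other groups. Members near the floor, CLDN2 in hyperoxia and CLDN7, are limited by depth.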

Other observations

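In the library assigned to no group, the 6 members not above the normoxic controls had these CPM without TMM factors. CLDN2 was at 1.13 (5 counts), where the 4 controls were at 17.9 to 23.5, F11R at 33.5 (controls 47.8 to 71.6) and CGN at 8.15 (controls 9.85 to 12.7). CLDN4 at 2.26, CLDN7 at 1.59 and TJP1 at 299 lay within the range of the controls.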
